A study of Mus musculus with 17 samples.

Results

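The genes described here are 8 genes that mark alveolar type 1 (AT1) cells, namely Ager, Hopx, Pdpn, Aqp5, Cav1, Rtkn2, Clic5 and Emp2. They were chosen by name as AT1 cell genes, with earlier results of these data known, and all 8 were found among the 16410 genes of the tumor cell table, the 13545 of the TRM table and the 13407 of the MDM table. The study deleted Gpx4, the glutathione peroxidase that detoxifies lipid peroxides, in lung tumor cells of mice and compared tumors with and without the deletion. Bulk RNA sequencing covered tumor cells, tissue-resident macrophages (TRMs) and monocyte-derived macrophages (MDMs), with 2 KL and 2 KLG4 libraries of each, that is 12 libraries in 6 groups. Another 5 of the 17 samples, from other cells, are not covered.

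KL mice formed lung tumors once Cre recombinase acted on their engineered alleles, among them Lkb1fl/fl, from which Cre removes Lkb1. KLG4 mice carried the same alleles together with Gpx4m/m, in which a Dre recombinase, itself unlocked by Cre and activated by tamoxifen, removes the rox-flanked exons of Gpx4. Mice of both genotypes were given an adenovirus carrying Cre (Ad-Cre) through the nose and were later treated with tamoxifen, so tamoxifen was shared by all groups, and cells were taken 10 weeks after Ad-Cre. Tumor cells were sorted as EpCAM+ CD31- cells, a gate that removes endothelium, and the sources used here differ on how CD45 was gated. Adenoviral Cre is not restricted to a single epithelial cell type, so the cell in which a tumor began is not fixed by the model. The libraries of a tumor cell group came from separate mice according to the sources used here, which say nothing of this for TRMs and MDMs, and p-values measure only the spread between these libraries, which may be technical.

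AT1 cells are the thin, flat cells that line most of the gas exchange surface of the lung, and AT2 cells are the cuboidal cells that make surfactant and can divide and turn into AT1 cells during repair. The genes followed here are used to tell these cells apart, but none of them belongs to AT1 cells alone. Caveolin-1 is abundant in endothelium, podoplanin is found on lymphatic endothelium, fibroblasts and some macrophages, and aquaporin-5 is also made in airway glands. No library of sorted AT1 cells was among the samples, so the label could be checked only against other markers in the same libraries.

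Levels are RPKM, in which reads are divided by gene length and by the size of the library, and can be compared between genes within a library. Each population was deposited in its own table and fitted by itself, so a level set beside one of another population is a description and was not tested. The recovered depth was 9.14 to 36.6 M (megareads) counted per library, and both mates of a pair were mostly counted, so counting noise is larger than these totals imply. The KLG4 pair of tumor cell libraries differed by a mean chi-square of 3.28 per gene against 28.9 to 131.6 in the 5 other pairs, so the spread of KLG4 tumor cells may be smaller than that between animals, and the SE and adjusted p of tumor cells rest on it. In TRMs both KLG4 libraries held Xist (18.3 and 20.2 RPKM) and both KL libraries held little (0.257 and 0.501 RPKM), so sex and genotype cannot be told apart there. Among MDMs only KL replicate 2 was low in Xist (0.839 RPKM against 19.4 to 21.8 RPKM). For tumor cells the Xist level was 6.18 and 4.55 RPKM in KL and 4.38 and 4.17 RPKM in KLG4. Eif2s3y, a gene of the Y chromosome, was also present there, at 7.27 and 9.26 RPKM in KL and 7.52 and 8.15 RPKM in KLG4. Whether RNA of several mice was mixed in these tumor cell libraries was not tested. Gpx4 was at 56.4 and 61.9 RPKM in KLG4 tumor cells and at 94.95 and 76.8 RPKM in KL tumor cells. In TRMs it was also lower in both KLG4 libraries (53.8 and 57.0 RPKM against 89.8 and 88.2 RPKM in KL), and in MDMs it was higher in both (93.6 and 97.7 RPKM against 44.9 and 71.3 RPKM in KL).

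The promoter sequences of 4 of the genes are shown as examples of the directions found. Ager and Emp2 were lower in KLG4 tumor cells, Pdpn was higher, and Hopx was lower in tumor cells, while its differences in TRMs and MDMs did not pass the test (limma adjusted p = 0.165 and 0.679). Each is the 250 bases before the start of the gene in RefSeq, read 5′ to 3′ on the strand of the gene in build GRCm38.p6, with capitals marking a match on either strand to GGGCGG (GC box), CACGTG (E-box), CATTCC (the TEAD motif) or CTCAAG (an NKX2-1 motif).
Ager, chr17:34597600-34597849, plus strand: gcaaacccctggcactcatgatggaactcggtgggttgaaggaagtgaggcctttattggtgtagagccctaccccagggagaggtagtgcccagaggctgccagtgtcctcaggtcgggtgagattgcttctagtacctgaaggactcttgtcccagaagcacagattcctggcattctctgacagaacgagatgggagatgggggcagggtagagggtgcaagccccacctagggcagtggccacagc
Emp2, chr16:10313969-10314218, minus strand: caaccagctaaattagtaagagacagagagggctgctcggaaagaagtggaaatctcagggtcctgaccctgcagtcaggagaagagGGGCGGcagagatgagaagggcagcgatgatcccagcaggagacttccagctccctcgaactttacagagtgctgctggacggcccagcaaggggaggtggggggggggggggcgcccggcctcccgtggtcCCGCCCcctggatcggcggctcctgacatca
Hopx, upstream start, chr5:77115124-77115373, minus strand: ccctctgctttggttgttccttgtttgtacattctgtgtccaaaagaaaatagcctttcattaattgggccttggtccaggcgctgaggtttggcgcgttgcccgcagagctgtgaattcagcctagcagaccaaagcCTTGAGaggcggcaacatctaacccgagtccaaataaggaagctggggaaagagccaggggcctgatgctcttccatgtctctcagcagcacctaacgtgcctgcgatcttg
Pdpn, chr4:143299565-143299814, minus strand: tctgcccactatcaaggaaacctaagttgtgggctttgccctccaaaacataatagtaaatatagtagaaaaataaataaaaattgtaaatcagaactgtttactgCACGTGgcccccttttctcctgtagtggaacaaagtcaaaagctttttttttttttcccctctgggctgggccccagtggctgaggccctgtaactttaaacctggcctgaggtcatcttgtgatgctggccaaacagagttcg

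The 4 windows differed in what they held. The Ager window had none of the 4 motifs, the Emp2 window had 2 GC boxes, the Hopx window had an NKX2-1 motif on the opposite strand and the Pdpn window had an E-box. Of the 9 windows of the 7 members with an entry, 4 held a GC box, 3 an E-box, 1 the NKX2-1 motif and 0 the TEAD motif. Among all 32851 windows of this length, 32.7% held the GC box, 6.0% the E-box, 13.3% the NKX2-1 motif and 12.6% the TEAD motif. A match of this kind describes letters and not binding.

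In KL tumor cells the 8 genes covered a wide range of levels, from Aqp5 through Ager, Emp2, Hopx, Clic5, Pdpn and Cav1 down to Rtkn2, and no neighbours in this order overlapped between libraries, with Aqp5, Ager and Emp2 making up 96.2% and 96.0% of their summed RPKM. In KLG4 tumor cells 6 of the 8 were lower (Ager, Aqp5, Hopx, Rtkn2, Emp2 and Clic5), Pdpn was higher and Cav1 did not pass the test. Both KLG4 libraries lay below both KL libraries for those 6 genes and above them for Pdpn, as they did for 38.6% and 34.3% of all genes of the table. Among all 13770 genes tested in this table, 19.6% were lower and 20.6% higher at an adjusted p under 0.05 in limma. The median log2 fold change was -0.09 against -1.34 over the 8 genes. Mitochondrial genes took 7.39% and 8.27% of the reads in KL and 14.83% and 14.69% in KLG4, at depths of 36.6 and 30.2 M and of 17.6 and 15.9 M. On reads outside mitochondrial genes 7 of the 8 were called, where 36.4% of genes were, with a median of -1.24. Rtkn2 passed the filter of at least 1 RPKM in at least 2 libraries only through the KL libraries, so it had to differ, and without it the counts are 5 of 7 lower and 1 of 7 higher. Without KLG4 replicate 1, and likewise without KLG4 replicate 2, 4 of the 8 were called (Ager, Hopx, Aqp5 and Pdpn), where at most 14.5% of genes were; the KLG4 library left was assumed to vary like the KL pair. The 3 genes no longer called kept their direction, Emp2 at -1.27 and -1.16, Clic5 at -1.03 and -0.84 and Rtkn2 at -1.46 and -1.45 on the log2 scale.

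**Figure D1:**
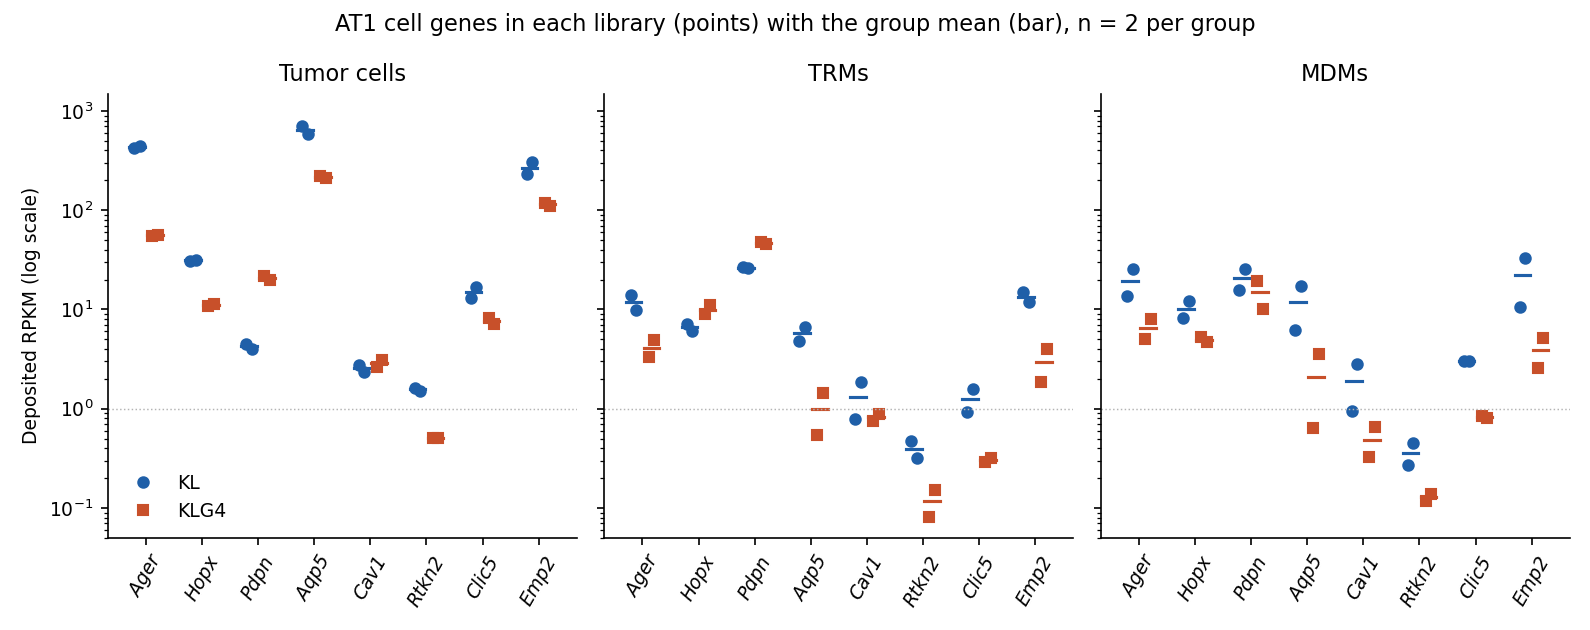
Deposited RPKM of the 8 AT1 cell genes on a log scale, in tumor cells, TRMs and MDMs, with a point for each library (circles KL, squares KLG4) and a bar for each group mean; the dotted line is 1 RPKM. In tumor cells Ager, Hopx, Aqp5, Rtkn2, Clic5 and Emp2 have both KLG4 points below both KL points, Pdpn has them above, and Cav1 overlaps.

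Ager (chromosome 17, 34597862 to 34600936, plus strand) encodes RAGE, a receptor for advanced glycation end products, S100 proteins and HMGB1 that AT1 cells carry on their basal side. KL tumor cells had 426 and 448 RPKM of Ager, and KLG4 tumor cells had 54.9 and 56.7 RPKM. The 4 values fell into well separated pairs, and Ager had the lowest fold change of the 8 genes, with a log2 fold change of -2.97 (SE 0.11, limma adjusted p = 0.000115), or means of 437 ± 15.2 and 55.8 ± 1.32 RPKM (SD, n = 2). In KL tumor cells Ager stood between Aqp5 and Emp2, whereas in KLG4 tumor cells it stood below both.

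Aqp5 (chromosome 15, 99590849 to 99594829, plus strand), the water channel of the apical membrane, was the most abundant of the 8 in tumor cells of both genotypes. It was at 699 and 590.5 RPKM in KL and at 222 and 209 RPKM in KLG4, again without overlap. The log2 fold change was -1.57 (SE 0.13, limma adjusted p = 0.000828).

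Emp2 (chromosome 16, 10281749 to 10313968, minus strand) encodes a small tetraspan membrane protein that acts on integrins and caveolae. It was at 230.4 and 308 RPKM in KL tumor cells and at 119 and 110.2 RPKM in KLG4 tumor cells. Both KLG4 libraries lay below both KL libraries, which were less close to each other than the KLG4 ones, and the log2 fold change was -1.22 (SE 0.17, limma adjusted p = 0.00392).

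Hopx (chromosome 5, 77086988 to 77115121, minus strand) encodes a small homeodomain protein that does not bind DNA by itself and marks AT1 cells and their precursors. It was at 31.1 and 31.6 RPKM in KL tumor cells and at 10.9 and 11.3 RPKM in KLG4 tumor cells, a log2 fold change of -1.50 (SE 0.12, limma adjusted p = 0.000707). The exons of Hopx overlap those of Hopxos, a transcript of the opposite strand, and the reads were counted without strand, so reads of the pair cannot be told apart. Hopxos itself was at 22.1 and 23.2 RPKM in KL and at 7.85 and 6.73 RPKM in KLG4 tumor cells.

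Clic5 and Rtkn2 were the least abundant of the genes called lower. Clic5 (chromosome 17, 44188572 to 44280168, plus strand), a chloride intracellular channel protein that binds ezrin and actin, was at 13.2 and 16.7 RPKM in KL and at 8.25 and 7.19 RPKM in KLG4 tumor cells. Its log2 fold change of -0.94 (SE 0.18, limma adjusted p = 0.0109) was the smallest decrease among the 6 genes. Rtkn2 (chromosome 10, 67979570 to 68059740, plus strand) encodes rhotekin 2 and was the lowest of the 8 genes at 1.62 and 1.53 RPKM in KL and 0.511 and 0.510 RPKM in KLG4. These KLG4 values rested on 50 and 45 reads, and the log2 fold change was -1.45 (SE 0.22, limma adjusted p = 0.00536); the exons of Rtkn2 overlap those of Gm16212 on the other strand.

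Pdpn was the only one of the 8 genes that was called higher in KLG4 tumor cells. Pdpn (chromosome 4, 143267431 to 143299564, minus strand) encodes podoplanin, a mucin-like membrane protein that binds CLEC-2 on platelets and links to the cytoskeleton through ezrin and moesin. It was at 4.52 and 3.97 RPKM in KL and at 21.9 and 19.7 RPKM in KLG4 tumor cells. The KLG4 mean was 4.90 times the KL mean, with a log2 fold change of 2.27 (SE 0.15, limma adjusted p = 0.000439).

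Cav1 (chromosome 6, 17306335 to 17341452, plus strand), the scaffold protein of caveolae, was low in tumor cells and its groups overlapped. It was at 2.77 and 2.33 RPKM in KL and at 2.65 and 3.08 RPKM in KLG4. The log2 fold change was 0.16, with a 95% confidence interval of -0.33 to 0.66 and a limma adjusted p of 0.543.

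Markers of other cells moved with genotype in the tumor cell libraries. Of the leukocyte markers 10 of 10 were called higher in KLG4 tumor cells, as were 10 of 10 fibroblast markers and 9 of 9 monocyte-derived macrophage markers tested, where 20.6% of all genes were, although the sort took EpCAM+ cells. Of these, 2 leukocyte, 5 fibroblast and 3 monocyte-derived macrophage markers passed the filter only through the KLG4 libraries and so had to differ, and without them the counts are 8 of 8, 5 of 5 and 6 of 6. Other lists were less uniform. Of 9 alveolar macrophage markers tested 6 were called higher and 0 lower, and of 9 general macrophage markers 6 higher and 1, Cd36, lower. Without those that passed only through KLG4, 5 of 8 and 4 of 7 were higher. Mesothelial markers were called lower in 2 of 2 tested, where 19.6% of all genes were. The summed RPKM of the leukocyte markers was 29.4 and 42.9 in KL and 326 and 337 in KLG4, and that of the fibroblast markers was 87.1 and 114 in KL and 1091 and 1111 in KLG4. The defining fibroblast markers Col1a1 (1.84 and 2.60 RPKM in KL, 33.3 and 33.2 RPKM in KLG4) and Pdgfra (0.278 and 0.442 RPKM in KL, 8.10 and 7.75 RPKM in KLG4) and the leukocyte marker Ptprc (0.834 and 2.06 RPKM in KL, 26.7 and 27.4 RPKM in KLG4) were all above 0. Of the 5 lymphatic endothelial markers only 2 were in the table, Flt4 and Ccl21a, with a summed level of 0.579 and 0.248 RPKM in KL and 1.71 and 1.47 RPKM in KLG4. Of the blood endothelial markers 3 of 6 tested were called higher, beside the same 20.6%, and 2 of 5 without Kdr, which passed the filter only through the KLG4 libraries. They were Pecam1 (2.23 and 1.17 RPKM in KL, 3.72 and 4.18 RPKM in KLG4), Tek (2.30 and 1.24 RPKM in KL, 3.90 and 4.03 RPKM in KLG4) and Kdr (0.662 and 0.677 RPKM in KL, 1.93 and 1.95 RPKM in KLG4), and the summed level of the 8 such markers in the table was 22.5 and 17.7 RPKM in KL and 23.9 and 26.2 RPKM in KLG4. The part of these cells in the levels of Pdpn and Cav1 was not tested, and in bulk samples fewer cells of a type cannot be told apart from less RNA per cell.

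Of 10 epithelial markers tested, 8 were called lower and 0 higher in KLG4 tumor cells, beside 19.6% and 20.6% of all genes, the median log2 fold change being -0.78, and Epcam, the surface marker of the sort, was at 638 and 420 RPKM in KL and at 215 and 211 RPKM in KLG4. Their summed RPKM was 1343 and 1067 in KL and 603 and 605 in KLG4. Set against this sum in its own library, a comparison chosen after the data were seen, Ager was at 31.7% and 42.0% in KL and at 9.09% and 9.38% in KLG4. Ager thus stayed lower relative to other epithelial genes.

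The other members divided on that scale. Aqp5 was at 52.1% and 55.4% of the epithelial sum in KL and 36.8% and 34.6% in KLG4, and Hopx at 2.32% and 2.97% in KL and 1.80% and 1.86% in KLG4, both without overlap. Clic5 and Emp2 overlapped between genotypes, with Emp2 at 17.2% and 28.9% in KL and 19.7% and 18.2% in KLG4. When the libraries were scaled to an equal epithelial sum and all genes were fitted again, 4 of the 8 genes passed an adjusted p of 0.05, Ager (log2 fold change -1.98) and Aqp5 (-0.59) as lower and Pdpn (3.24) and Cav1 (1.11) as higher. Hopx, Rtkn2 and Emp2 no longer passed, and Clic5 turned to 0.04. This scaling moved the median of all genes from -0.09 to 0.87, and 60.5% of genes were then called, so values on it are relative to epithelial genes only.

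**Figure D2:**
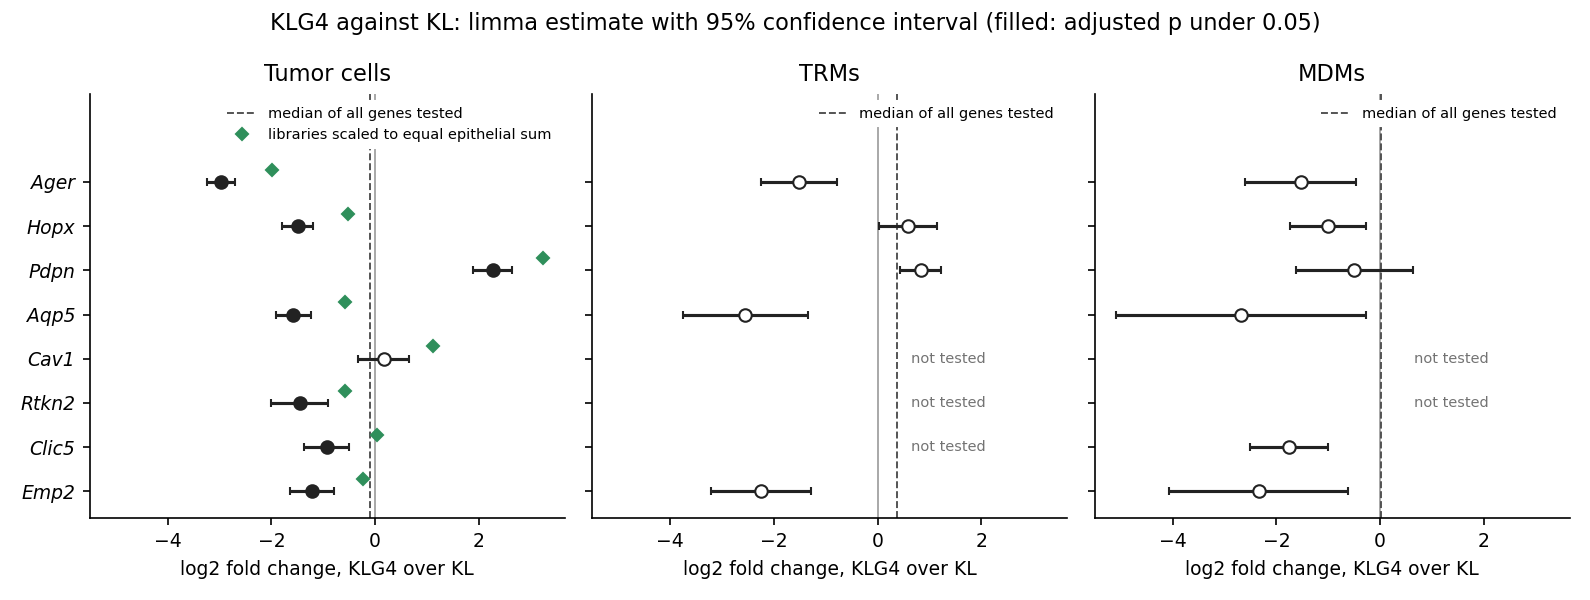
limma log2 fold change of each AT1 cell gene, KLG4 over KL on the log2(RPKM + 0.1) scale, in tumor cells, TRMs and MDMs, with 95% confidence intervals (filled circles have an adjusted p under 0.05), the median of all genes tested as a dashed line and, for tumor cells, the estimate after scaling to equal epithelial marker sums as diamonds. In tumor cells Ager is lowest at -2.97 and Pdpn highest at 2.27, and each diamond lies to the right of its circle.

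Of 14 further AT1 genes, 13 were tested in tumor cells and 9 were called lower and 1 higher, beside the 19.6% and 20.6% of all genes given above. Their median log2 fold change was -1.33, and without either KLG4 library 5 were called, where at most 14.5% of genes were. Akap5, an anchoring protein for kinase A, was at 19.0 and 27.8 RPKM in KL and at 5.20 and 5.27 RPKM in KLG4, the lowest fold change of this list (log2 fold change -2.11). Cldn18, the claudin of the alveolar barrier, was at 55.1 and 62.4 RPKM in KL and 17.3 and 18.8 RPKM in KLG4 (log2 fold change -1.69). Col4a3, a chain of basement membrane collagen IV, was at 2.07 and 4.78 RPKM in KL and 0.642 and 0.674 RPKM in KLG4 (log2 fold change -2.10). It passed the filter only through the KL libraries, so it had to differ, and without it 8 of 12 were called lower.

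The exception among these genes was Timp3, an inhibitor of metalloproteinases that fibroblasts also make, at 17.2 and 20.6 RPKM in KL and 62.9 and 59.8 RPKM in KLG4 (log2 fold change 1.70). Sec14l3, Cyp2b10 and Spock2 did not pass the test, with log2 fold changes of 0.28, 0.21 and 0.41. The list thus held genes in both directions, as the 8 genes did.

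AT2 markers were lower as well. All 10 were called lower in KLG4 tumor cells, where 19.6% of all genes were, with a median log2 fold change of -1.39, from Sftpc, the surfactant protein C gene (log2 fold change -2.08), to Abca3, its lipid transporter (-0.60). The summed RPKM of the 10 AT2 markers was 3707 and 4163 in KL and 1300 and 1324 in KLG4, and that of the 8 AT1 cell genes was 1409 and 1402 in KL and 440.3 and 418 in KLG4. The AT1 sum was therefore 38.0% and 33.7% of the AT2 sum in KL and 33.9% and 31.6% in KLG4, and the genotypes overlapped. The difference in log2 ratio, KLG4 minus KL, was -0.13 with a pooled SD of 0.10 between libraries of a group. This difference was 0.44 when the mean of log2 values over each list replaced the sum, which is dominated by a few abundant genes.

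Genes of the state between AT2 and AT1 cells, such as keratins 7, 8, 18 and 19, were lower too. Of 10 tested, 8 were called lower and 0 higher, beside 19.6% and 20.6% of all genes, with a median log2 fold change of -0.999. Krt8 was at 2747 and 2187 RPKM in KL and 1324 and 1287 RPKM in KLG4 (log2 fold change -0.91), and Krt7 had the lowest fold change at -1.28. Cdkn1a, a cell cycle inhibitor, and Lgals3, galectin-3, had log2 fold changes of -0.34 and -0.26 and did not pass.

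Airway markers went the other way. Of 9 tested, 6 were called higher and 0 lower, beside 20.6% and 19.6% of all genes, with a median log2 fold change of 0.88. Scgb1a1, the secretoglobin of club cells, was at 3128 and 3848 RPKM in KL and 6332 and 6483 RPKM in KLG4, and Scgb3a1 had a log2 fold change of 1.79. Scgb1a1 lay above the highest AT1 cell gene, Aqp5, in all 4 libraries.

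**Figure D3:**
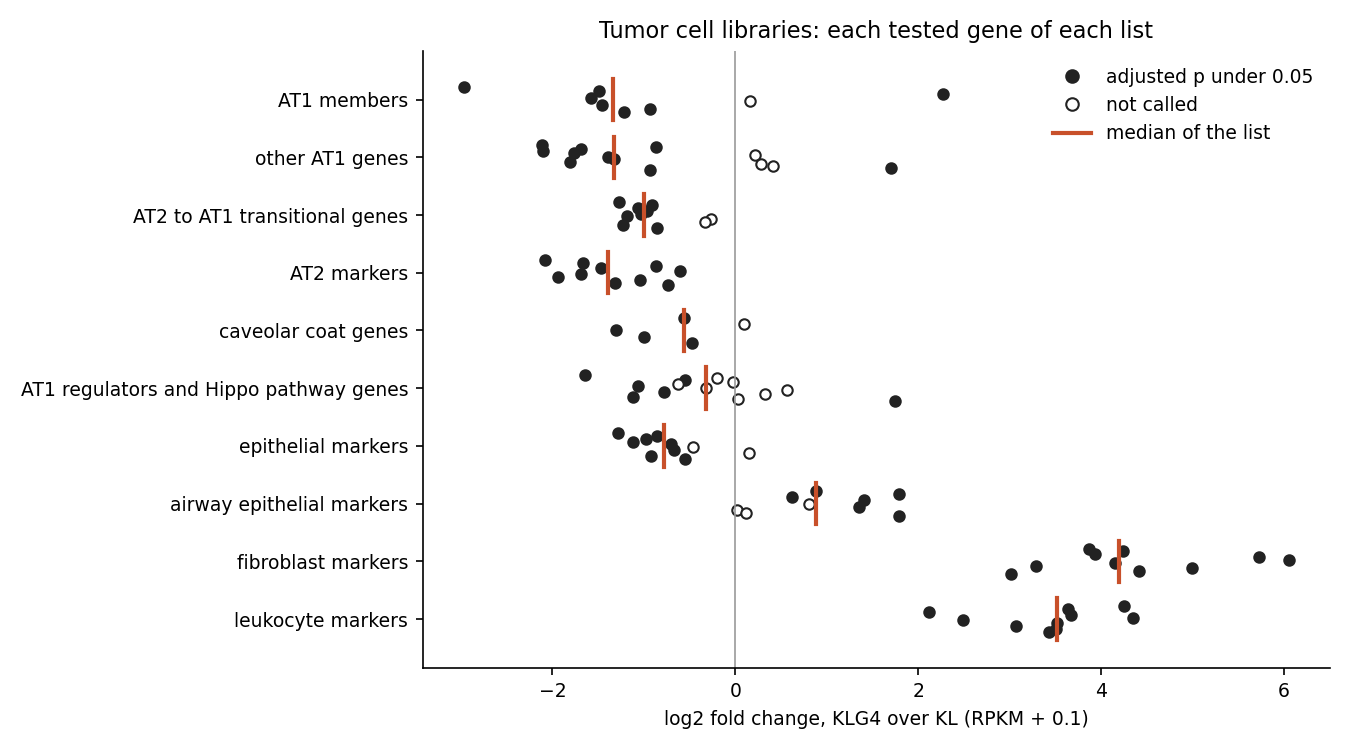
limma log2 fold change, KLG4 over KL, of each tested gene of 10 lists in tumor cells (filled circles have an adjusted p under 0.05, the vertical bar is the median of a list). The AT1, AT2 and transitional lists have medians between -1.39 and -0.999, airway markers a median of 0.88, and fibroblast and leukocyte markers medians of 4.19 and 3.52.

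Of 13 regulators of AT1 cells and genes of the Hippo pathway, which acts through YAP and TAZ, 5 were called lower and 1 higher in tumor cells, where 19.6% and 20.6% of all genes were and 40.3% in either direction, a share near that of this list. The median log2 fold change was -0.32. Nkx2-1, the lineage factor of the distal lung, was at 16.02 and 18.8 RPKM in KL and 4.91 and 6.19 RPKM in KLG4 (log2 fold change -1.64, limma adjusted p = 0.00176). Wwtr1, which encodes TAZ, was at 13.9 and 14.7 RPKM in KL and 14.8 and 13.4 RPKM in KLG4, without a difference past the test (log2 fold change -0.03).

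Targets of the YAP and TAZ axis did not move together. Ccn2, which encodes connective tissue growth factor, was at 17.0 and 16.9 RPKM in KL and 55.7 and 58.8 RPKM in KLG4 (log2 fold change 1.75), and Ankrd1 was called lower (-1.12). Ccn1 lay between 80.6 and 84.3 RPKM in all 4 libraries. Yap1, Tead4 and Ajuba were also called lower, with log2 fold changes of -0.55, -1.07 and -0.78.

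Partners of the members were examined by role. The coat proteins of caveolae were expressed well above Cav1, with Cavin1 at 113 and 111 RPKM in KL and 76.2 and 75.0 RPKM in KLG4, and 4 of 5 were called lower and 0 higher, beside 19.6% and 20.6% of all genes. Among ligands of RAGE, S100a9 was at 166 and 248 RPKM in KL and 1983 and 1886 RPKM in KLG4 (log2 fold change 3.26), S100a8 rose by 3.70 on the log2 scale, and Hmgb1 fell by 0.55. Both S100 genes are abundant in neutrophils and monocytes, and the leukocyte markers given above moved with them. Clec1b, the receptor of podoplanin, was at 0.0856 and 0.143 RPKM in KL and 1.21 and 1.35 RPKM in KLG4 (log2 fold change 2.70), and it passed the filter only through the KLG4 libraries, so it had to differ. Ezr, the partner of Clic5 and podoplanin, was at 2460 and 2295 RPKM in KL and 1695 RPKM in both KLG4 libraries (-0.49).

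TRMs are macrophages that persist in the lung tissue, and those of KLG4 tumors were compared with those of KL tumors, as were MDMs. Of the 8 genes, 5 passed the filter in TRMs (Ager, Hopx, Pdpn, Aqp5 and Emp2), and 0 were called at an adjusted p under 0.05 in limma, where 1.80% of 10990 genes were. All 5 had an unadjusted p under 0.05, 3 as lower, where 2.78% of genes were, and 2 as higher, where 25.5% were, with adjusted p between 0.0539 and 0.165. limma-voom on the recovered reads called 3 of them (Ager, Aqp5 and Emp2), where it called 7.0% of genes, and a pseudocount of 1 called 4, where it called 4.46%. Over all 8 genes, tested or not, 5 had both KLG4 libraries below both KL libraries, where 10.7% of the table did, and 2 had them above, where 49.0% did.

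Pdpn was the highest of the 8 genes in TRMs. It was at 26.6 and 26.3 RPKM in KL and at 48.1 and 46.1 RPKM in KLG4, without overlap, a difference that did not pass the test (log2 fold change 0.83, SE 0.16, limma adjusted p = 0.0592). The median of all genes in this table was 0.38, in KL libraries where mitochondrial genes took 31.5% and 22.3% of the reads against 2.95% and 5.78% in KLG4. Relative to reads outside mitochondrial genes that median was 0.00 and the log2 fold change of Pdpn was 0.44 (limma adjusted p = 0.181).

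Ager, Aqp5 and Emp2 were lower in both KLG4 libraries of TRMs than in either KL library. Ager was at 13.9 and 9.81 RPKM in KL and 3.30 and 4.89 RPKM in KLG4 (log2 fold change -1.52, limma adjusted p = 0.0594). Aqp5 was at 4.80 and 6.69 RPKM in KL and 0.538 and 1.43 RPKM in KLG4 (-2.55, adjusted p = 0.0592), the latter from 24 and 28 reads. Emp2 was at 14.9 and 11.9 RPKM in KL and 1.85 and 4.01 RPKM in KLG4 (-2.25, adjusted p = 0.0539).

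Hopx was at 7.12 and 6.06 RPKM in KL and at 8.92 and 11.0 RPKM in KLG4 TRMs. The log2 fold change was 0.58 (SE 0.23, limma adjusted p = 0.165), and 0.20 relative to reads outside mitochondrial genes. Its antisense partner Hopxos was at 4.15 and 4.54 RPKM in KL and 6.81 and 8.45 RPKM in KLG4.

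Clic5, Cav1 and Rtkn2 were too low in TRMs to be tested. Clic5 was at 0.920 and 1.57 RPKM in KL and 0.293 and 0.319 RPKM in KLG4, and Rtkn2 at 0.469 and 0.316 RPKM in KL and 0.0808 and 0.153 RPKM in KLG4, from 10 to 26 reads. Cav1 was at 0.784 and 1.84 RPKM in KL and 0.759 and 0.889 RPKM in KLG4, and was the gene whose groups overlapped. Clic5 and Rtkn2 had both KLG4 libraries below both KL libraries.

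In MDMs 6 of the 8 genes were tested (all but Cav1 and Rtkn2) and 0 were called in limma, where 0.00% of 10475 genes were called. Every one of the 6 had an adjusted p between 0.679 and 0.712, and 5 of them (all but Pdpn) had an unadjusted p under 0.05 with lower levels in KLG4, as 3.92% of genes had. Over all 8 genes 7 had both KLG4 libraries below both KL libraries, where 21.6% of the table did, and Pdpn overlapped. Clic5 passed the filter only through the KL libraries, so it had to differ, and without it 4 of 5 had an unadjusted p under 0.05.

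KL replicate 2 was the highest of the 4 MDM libraries for each of the 8 genes. Ager was at 13.6 and 25.4 RPKM in KL and 5.09 and 7.93 RPKM in KLG4 (log2 fold change -1.53, SE 0.41). Emp2 was at 10.7 and 33.4 RPKM in KL and 2.56 and 5.21 RPKM in KLG4 (-2.34, SE 0.66), and Aqp5 at 6.27 and 17.3 RPKM in KL and 0.644 and 3.55 RPKM in KLG4 (-2.67, SE 0.92). In RPKM of Emp2 and of Aqp5, the KL libraries lay further from each other than KL replicate 1 lay from either KLG4 library.

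Hopx was at 8.24 and 12.1 RPKM in KL and 5.26 and 4.66 RPKM in KLG4 MDMs, a log2 fold change of -0.996 (SE 0.28). Clic5 was at 2.99 and 3.05 RPKM in KL and 0.850 and 0.799 RPKM in KLG4 (log2 fold change -1.76, SE 0.29, unadjusted p = 0.00213). Pdpn was at 15.6 and 25.5 RPKM in KL and 19.5 and 10.2 RPKM in KLG4, with no separation of the groups (-0.50, 95% confidence interval -1.62 to 0.63). The 2 untested genes were Cav1, at 0.939 and 2.85 RPKM in KL and 0.323 and 0.647 RPKM in KLG4, and Rtkn2, at 0.272 and 0.452 RPKM in KL and 0.118 and 0.139 RPKM in KLG4.

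Without KL replicate 1, when KL replicate 2 stood alone for KL and was assumed to vary like the KLG4 libraries, Ager, Hopx, Clic5 and Emp2 passed an adjusted p of 0.05 in limma (0.0220 to 0.0256), or 3 genes without Clic5, where 25.6% of genes did. The lone KL library of that fit differed from the others in Xist, so a difference of sex may not be told apart from genotype in it. No level of Eif2s3y was available for MDMs, so the sex of that library rests on Xist alone. Without KL replicate 2 none of the 6 passed, and 0.00% of genes did.

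In TRMs and in MDMs both KLG4 libraries had a smaller sum of AT2 markers than either KL library, and lay below both KL libraries for Ager, Aqp5 and Emp2, of which none passed the test in either population. The summed RPKM of the 10 AT2 markers was 175 and 185 in KL TRMs and 37.5 and 72.2 in KLG4 TRMs, and 165 and 396 in KL MDMs and 43.1 and 77.4 in KLG4 MDMs. In TRMs 2 of the 9 AT2 markers tested were called lower, Sftpa1 (log2 fold change -2.10, limma adjusted p = 0.0435) and Sftpd (-2.42, adjusted p = 0.0289), where 0.437% of genes were, and 0 were called higher. Of the 10 markers in TRMs, 6 had both KLG4 libraries below both KL libraries, where 10.7% of the table did, 2 overlapped and 2 lay above, where 49.0% did, namely Abca3 (1.40 and 2.01 RPKM in KL, 4.53 and 4.26 RPKM in KLG4) and Napsa (3.16 and 3.21 RPKM in KL, 4.002 and 4.76 RPKM in KLG4). The summed level of the 8 AT1 cell genes in TRMs overlapped between genotypes at 69.5 and 64.5 RPKM in KL and 63.8 and 68.7 RPKM in KLG4. The part of RNA from other cells in the AT1 cell genes of macrophage libraries was not tested.

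Within a library the AT1 sum was 39.7% and 34.8% of the AT2 sum in KL TRMs and 35.5% and 30.3% in KL MDMs, values that overlapped the 38.0% and 33.7% of KL tumor cells. In KLG4 it was 170% and 95.3% in TRMs and 79.7% and 42.8% in MDMs. Pdpn was a large part of this, with 38.3% and 40.8% of the AT1 sum in KL TRMs and 75.4% and 67.0% in KLG4 TRMs against 0.321% and 0.283% in KL tumor cells. Without Pdpn, a choice made after the data were seen, the AT1 sum was 24.5% and 20.6% of the AT2 sum in KL TRMs, 41.9% and 31.4% in KLG4 TRMs, 26.1% and 23.9% in KL MDMs and 34.5% and 29.6% in KLG4 MDMs. The difference between genotypes in log2 ratio was 1.78 in TRMs and 0.83 in MDMs with Pdpn, and 0.69 and 0.36 without it. With the mean of log2 values over each list in place of the sum, it turned to -0.019 in TRMs and was 0.10 in MDMs. With 2 libraries against 2 no exact permutation test can give a two-sided p below 0.333, and none was run.

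**Figure D4:**
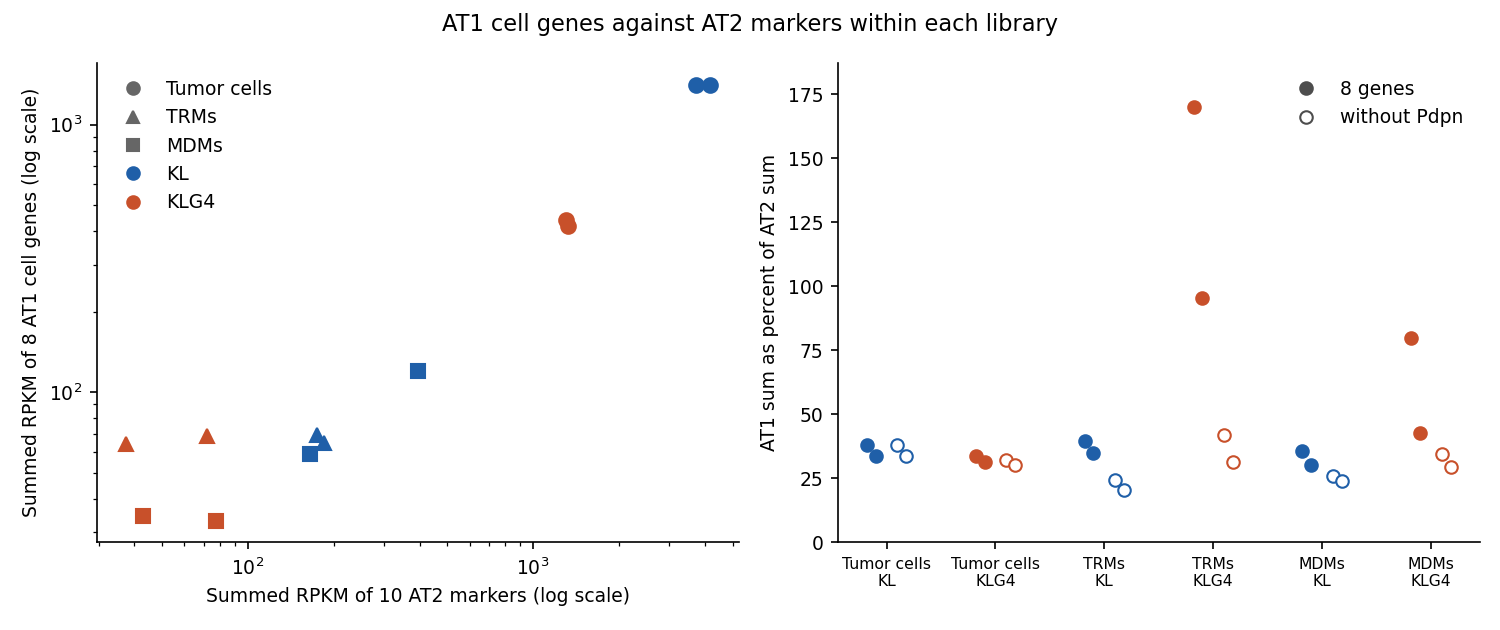
Left, summed RPKM of the 8 AT1 cell genes against that of 10 AT2 markers in each of the 12 libraries, both on log scales (circles tumor cells, triangles TRMs, squares MDMs). Right, the AT1 sum as percent of the AT2 sum in each library with all 8 genes (filled) and without Pdpn (open): without Pdpn all 12 libraries lie between 20.6% and 41.9%.

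Set beside the tumor cell level of the same genotype, the members differed widely. Because each population was fitted by itself these percentages are descriptions. In KL, Aqp5 in TRMs and MDMs was at 0.891% and 1.83% of its tumor cell mean, Ager at 2.72% and 4.46%, and Emp2 at 4.97% and 8.18%. The AT2 markers had a median of 5.62% in TRMs and 10.2% in MDMs, above each of these 3 genes. In KLG4, Aqp5 was at 0.456% and 0.972% and Emp2 at 2.55% and 3.39%, below the AT2 medians of 6.84% and 6.08%, whereas Ager was above them at 7.33% and 11.7%.

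Clic5, Hopx, Rtkn2 and Cav1 held larger shares of the tumor cell level in KL, at 8.32%, 21.0%, 24.9% and 51.5% in TRMs and 20.2%, 32.4%, 23.0% and 74.4% in MDMs. Rtkn2 and Cav1 were low in every population, so their shares rest on small numbers. Pdpn was the only member above the tumor cell level, at 623% in TRMs and 484% in MDMs of KL. In KLG4 it was at 226% in TRMs and 71.3% in MDMs, Hopx was at 89.9% and 44.8%, and Clic5 was at 3.96% and 10.7%, below Ager.

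**Figure D5:**
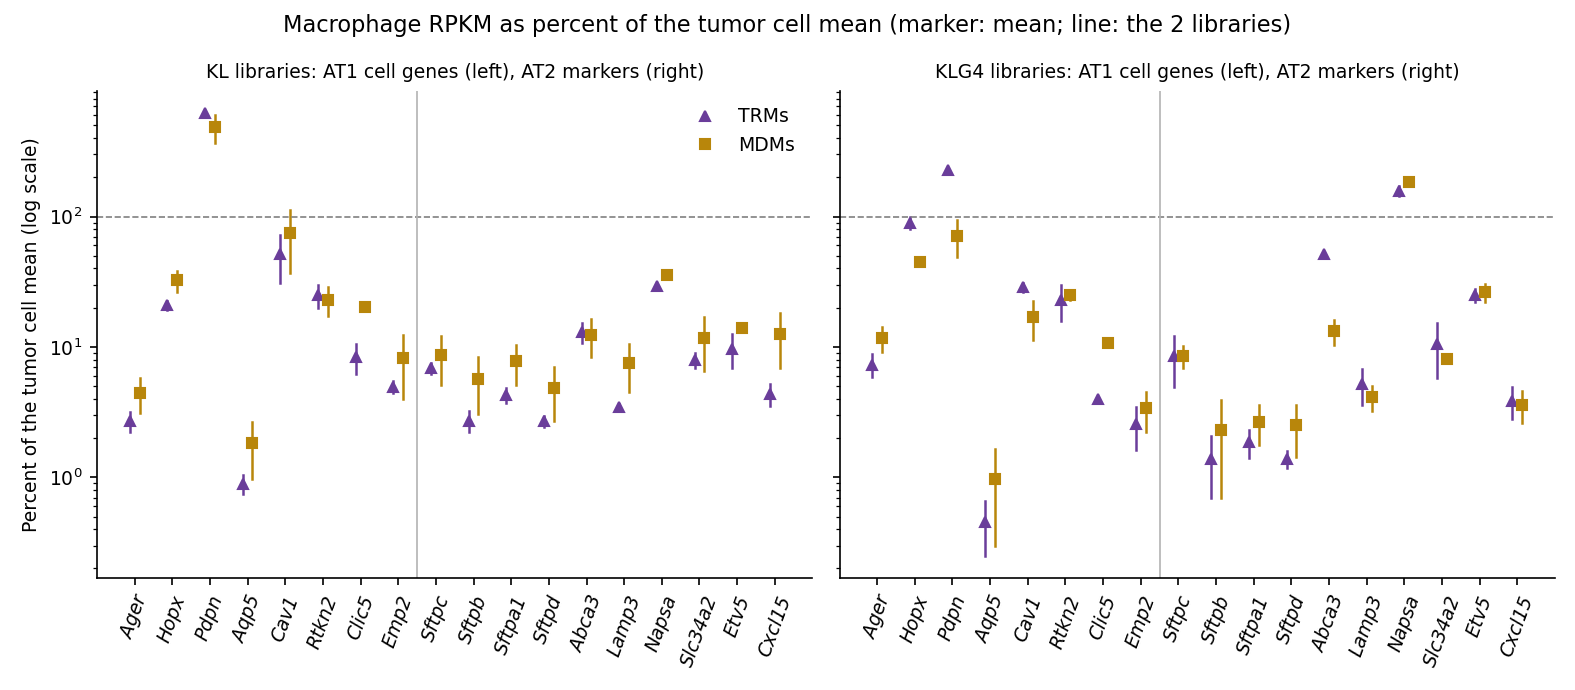
Mean RPKM in TRMs (triangles) and MDMs (squares) as percent of the mean in tumor cells of the same genotype, on a log scale, for the 8 AT1 cell genes and 10 AT2 markers; lines join the 2 libraries and the dashed line is 100%. Pdpn is at 623% and 484% in KL while Aqp5 is at 0.891% and 1.83%.

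The 8 genes differed in the genes that they resembled over the 12 libraries, by Pearson's r of log2(RPKM + 0.1) among 10791 other genes. These r values describe mainly the gap between tumor cell and macrophage libraries, which share their population, depth and table, and they carry no p. Aqp5 was most like the keratin and claudin genes Krt7, Cldn4 and Krt8 (r 0.997 to 0.996), and Emp2 most like the surfactant genes Sftpa1 and Sftpd and the plakin gene Ppl (0.996 to 0.994). Ager was most like Sftpc, Phldb2 and Lamp3 (0.979 to 0.975), Rtkn2 most like Sftpc, mt-Co3 and Egfl6 (0.977 to 0.958) and Clic5 most like Sema3c, Adgrf5 and Sfn (0.979 to 0.978).

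The remaining members had other neighbours. Hopx was most like its antisense partner Hopxos (r 0.989), then Tmem63b and Snrpd2 (0.943 and 0.942). Cav1 was most like Krt78, Abcb1a and RP23-276M23.6 (0.972 to 0.958). Pdpn was most like Rftn1, Ptpro and Rnase6 (0.966 to 0.961), and its r with the other 7 members was negative for each of them, from -0.81 with Ager to -0.32 with Cav1, while the other members had r between 0.67 and 0.99 with each other.

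Other genes of the pathway lists gave few calls in macrophages. Of the 14 further AT1 genes 7 were tested in TRMs, with 0 called lower, where 0.437% of genes were, and 1 called higher, where 1.36% were. That gene was Vegfa, which AT1 cells and macrophages both make, at 14.8 and 19.6 RPKM in KL and 63.7 and 52.5 RPKM in KLG4 (log2 fold change 1.76, limma adjusted p = 0.0359). The call of Vegfa was lost under 4 of 14 other settings (TMM scaling, scaling to reads outside mitochondrial genes, no trend, and without KL replicate 1), with adjusted p from 0.00248 to 0.0940 over the 14. Sfn was the single transitional gene called in TRMs, at 22.1 and 43.1 RPKM in KL and 5.44 and 6.54 RPKM in KLG4 (-2.35), a call lost under 5 of the 14 settings. The calls of Sftpa1 and Sftpd given above were lost under 5 and 1 of them.

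Of the caveolar coat genes 0 of 3 tested were called in TRMs and 0 of 3 in MDMs. In TRMs, Cavin3 had 1.08 and 0.790 RPKM in KL and was listed at 0 in each KLG4 library. In MDMs 0 genes of any list were called, with Cavin2 at 3.56 and 11.8 RPKM in KL and 1.23 and 1.64 RPKM in KLG4. Of the endothelial markers Cdh5 (3.82 and 9.26 RPKM in KL, 1.11 and 1.94 RPKM in KLG4) lay lower in KLG4 MDMs, as did 5 of 7 tested at an unadjusted p under 0.05, where 3.92% of genes did. Of these 7, 3 passed the filter only through the KL libraries and so had to differ, which leaves 2 of 4, and the part of endothelial cells in Cav1 was not tested.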

How the data were processed

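RNA sequencing libraries of tumor cells, TRMs and MDMs (2 KL and 2 KLG4 each) were grouped by sample title. Per the submitters' processing notes, reads were trimmed with Trim Galore 0.6.4, aligned with HISAT2 2.0.5 to GRCm38 and counted per gene with featureCounts 2.0.0; the library kit did not mark strand. The authors deposited RPKM in a table per population, with no further scaling between libraries. The deposited tables also held the authors' own fold changes, p-values and test statistics, which were not used.

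Reads were recovered as multiples of a step in RPKM times gene length, and at least 99.99% of low values lay within 0.05 of a whole number. Depth was 9.14 to 36.6 M (megareads). A gene was tested if 2 or more of the 4 libraries of a table reached 1 RPKM. The test was that of limma 3.58.1 in R 4.3.3, applied to log2(RPKM + 0.1), trended over the mean level, two-sided, with Benjamini-Hochberg adjustment over all genes of the table. Fold changes on this scale understate the change of low genes. The test was checked on simulated data.

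Alternatives covered pseudocounts of 1 and 0.01, other filters, quantile, TMM and mitochondrial scaling, no trend, a replicate block, limma-voom on recovered reads and leaving out each library. Scaling to equal epithelial marker sums and the ratio without Pdpn were added after the data were seen. The members and lists were chosen with earlier results of these data known. All 8 members were named, list genes where they passed the test, gave an end of a list or showed a marker's level, and the 3 genes most like each member among genes with a mean of at least 1 RPKM. Promoters are from RefSeq, where 7 of 8 members matched. CD8+ T cells and monocytes were not analysed here.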

Additional observations from a re-analysis of the deposited data

Results flagged for a closer look

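Hopx differed in direction between populations, though its differences in TRMs and MDMs did not pass the test (limma adjusted p = 0.165 and 0.679). Both KLG4 libraries lay below both KL libraries in tumor cells and in MDMs, as for 38.6% and 21.6% of all genes there. In TRMs they lay above, as for 49.0% of all genes. The genotype difference of Hopx on the log2 scale was lower by 2.08 in tumor cells than in TRMs (-2.08, tumor cells minus TRMs). It was higher by 1.58 in TRMs than in MDMs. Each population was fitted by itself, so these differences between populations were not tested. In TRMs the log2 fold change of Hopx was between 0.15 and 0.73 over 14 other settings and passed an adjusted p of 0.05 in none of them. The median of all genes in TRMs was 0.38, and Hopx was at 0.20 on reads outside mitochondrial genes.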

How the results depend on the processing

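In tumor cells, scaling to equal epithelial marker sums lowered the number of AT1 cell genes called from 7 to 4 and their median log2 fold change to -0.37, and turned Clic5 to 0.041. That median was -1.04 with a pseudocount of 1 and -1.24 on reads outside mitochondrial genes, and quantile scaling, which moved the median of all genes to -0.25, turned Cav1 to -0.058. The AT1 to AT2 difference in tumor cells (-0.13) was -0.35 without Sftpc and reversed to 0.44 with the mean of log2 values. In TRMs the number of AT1 cell genes called (0) was 4 with a pseudocount of 1, 3 at a mean of at least 5 RPKM and 3 with limma-voom. The further AT1 genes called in TRMs (1) were 0 with TMM scaling, 0 on reads outside mitochondrial genes, 0 without the trend and 4 with limma-voom. The TRM median (-1.52) was -0.47 at a mean of at least 5 RPKM, -1.90 with quantile scaling, -1.90 with TMM, -1.91 on reads outside mitochondrial genes and -2.02 with limma-voom; scaling removed the shift of 0.38 in all genes. The AT1 to AT2 difference was 0.69 in TRMs and 0.36 in MDMs without Pdpn, and -0.019 and 0.10 with the mean of log2 values. Apart from the construction of these settings, the cause was not tested.

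Leaving out each library gave 4 to 7 AT1 cell genes called in tumor cells, 0 to 4 in TRMs and 0 to 4 in MDMs, and 5 to 11, 0 to 2 and 0 to 5 of the further AT1 genes. The medians ranged from -1.42 to -1.25 in tumor cells, -1.79 to -1.24 in TRMs and -1.88 to -1.30 in MDMs, and the AT1 to AT2 differences from -0.22 to -0.04, 1.36 to 2.19 and 0.38 to 1.28. With the replicate block 3 AT1 cell genes and 3 further AT1 genes were called in TRMs, 7 and 10 in tumor cells and 0 and 0 in MDMs. Same-numbered libraries shared only a number, with correlations of their deviations of 0.02, -0.06 and 0.05. With 2 libraries per group, low genes such as Rtkn2 and Cav1 rested on few reads in macrophages.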
